A study of Homo sapiens with 6 samples.

Results

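The squamous lineage transcription factors examined here are *TP63*, *SOX2*, *KLF4*, *KLF5*, *PITX1*, *GATA3*, *TFAP2A*, *ZNF750* and *OVOL1*, 9 of the 58884 genes in the count tables, chosen by symbol. RNA was sequenced from HSC-4, an established human oral squamous cell carcinoma line, after 24 h with 50 μM DAPT or without it, with 3 libraries in each group. DAPT blocks γ-secretase, which cuts Notch receptors to free the domain that enters the nucleus. The study states that the controls received 0.5% DMSO, whereas their count columns carry the unexplained letters GM. Should GM stand for a medium without vehicle, effects of DMSO and of DAPT cannot be told apart. The labels do not say whether the libraries of a group came from separate cultures, so the p-values measure the spread between these libraries, and HSC-4 stands for a single tumor line.

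Stratified epithelia are renewed from a basal layer whose identity depends on p63, the protein of *TP63*. As cells leave that layer, Notch signaling is raised, p63 declines and factors such as KLF4, ZNF750, GATA3 and OVOL1 take part in switching on the genes of the upper layers. In squamous carcinomas, SOX2 and p63 are frequently gained together and bind many of the same enhancers.

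Total counts lay between 12276313 and 16317672 per library. *HEY1*, a Notch target, was at 32.6, 35.2 and 36.0 CPM (TMM-normalized counts scaled to a common library size) in the control libraries and at 9.61, 8.04 and 8.60 CPM with DAPT, without overlap. Of 12 squamous epithelial markers, all were detected, and their summed level lay between 6170 and 6416 CPM in the control libraries and between 4339 and 4530 CPM with DAPT. *KRT5* made up most of this difference, with 2701 CPM in the control mean and 1315 CPM with DAPT. *KRT6A* (523 to 187 CPM), *KRT17* (377 to 205 CPM) and *SFN* (375 to 255 CPM) also fell. So did *KRT16*, *KRT6B*, *KRT14* and *DSC3*, all of these markers at an adjusted p under 0.05 (edgeR). *KRT6B* had only 18 to 27 reads in the control libraries and 5 to 7 with DAPT. Like *KRT14*, it passed the filter on low counts through the control libraries alone. The cadherin gene *CDH1* (512 to 617 CPM, adjusted p = 1.39e-04, edgeR) and *EPCAM* (308 to 372 CPM, adjusted p = 1.19e-04, edgeR) rose, and *DSG3* and *CDH3* did not pass. The defining keratin *KRT14* was nearly absent, with 36 to 49 reads in the control libraries and 0 to 11 with DAPT, while its partner *KRT5* held at least 17027 reads in every library. Reads that map to several places were not counted, and *KRT14* resembles other keratin genes. The part of this in the low *KRT14* counts was not tested. Control replicate 1 stood apart. All 8 mesenchymal markers were at least 2-fold higher there than in any other library, and their sum was 806 CPM, against 50.8 to 60.7 CPM in the other 5 libraries. *VIM*, the intermediate filament gene of mesenchymal cells, had 3849 reads in that library and at most 31 elsewhere. The part of these transcripts in the results was not tested. Calls of the factors and of the gene lists below that changed without that library are therefore also given. DAPT replicate 1 also differed more from its group, with a chi-square per degree of freedom of 4.12 and 3.93 against the other DAPT libraries and 1.81 between those, where control replicate 1 gave 5.38 and 5.30 and the other control libraries 1.58. Without DAPT replicate 1, every call of the factors held. The other marker lists were low. Summed endothelial markers lay between 1.24 and 1.81 CPM in the control libraries and between 2.41 and 2.99 CPM with DAPT. *CDH5* was the endothelial marker that rose, from 2 to 7 reads in the control libraries to 19 to 36 with DAPT. It passed the filter on low counts through the DAPT libraries alone. Melanocyte markers summed to at most 2.96 CPM, and the leukocyte sum lay between 8.92 CPM and 13 CPM. *CD14* made up nearly all of the leukocyte sum, and *CD3E*, *MLANA* and *TYR* had 0 reads in every library.

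Of the 9 factors, 8 passed the filter on low counts. With DAPT, 3 of them rose and 4 fell, judged by edgeR at a Benjamini-Hochberg adjusted p below 0.05 over 15001 genes. Log2 fold changes are DAPT over control, with their standard error (SE). *KLF4*, *TFAP2A* and *OVOL1* were the genes that rose, and *ZNF750*, *TP63*, *SOX2* and *KLF5* were those that fell. *PITX1* did not pass the test, and *GATA3* had too few reads. By the same criterion, 35.2% of all tested genes changed, 17.2% higher and 18.0% lower with DAPT. The DAPT and control libraries did not overlap in 7 of the 8 tested factors, against 46.3% of all tested genes. In bulk RNA, fewer cells that express a gene and less RNA per cell cannot be told apart. Without control replicate 1, *PITX1* was also lower and *OVOL1* no longer passed, which left 2 factors higher and 5 lower.

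**Figure D1:**
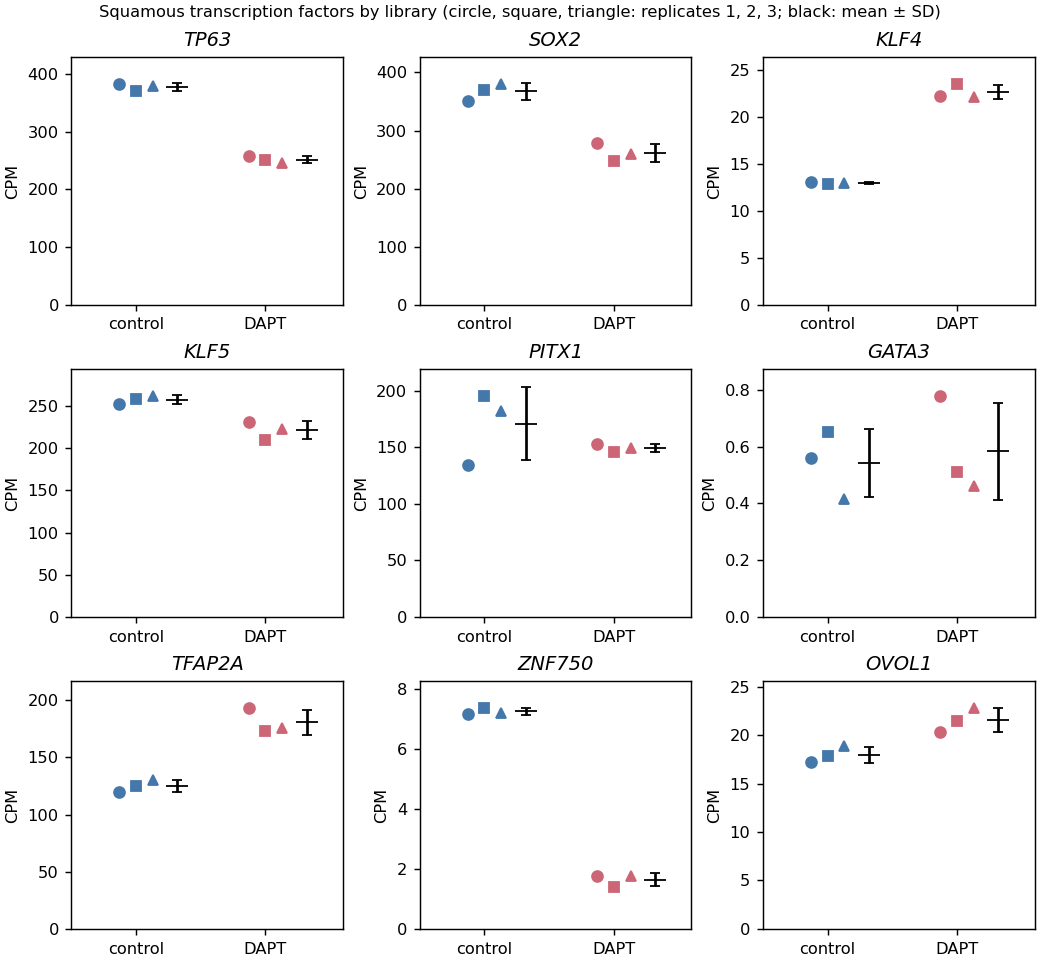
CPM of each of the 9 factors in every library, on linear axes that start at 0. Circles, squares and triangles are replicates 1, 2 and 3, and black bars give the mean ± SD (n = 3). The groups are separate in all panels except those of *PITX1* and *GATA3*, and the *PITX1* circle of the control group lies at 134 CPM, below every DAPT library.

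The factors covered a wide range of levels. Per exonic length, in TPM, the length-adjusted share of all reads, *SOX2* was highest in the control libraries at 510.0 ± 23.1 TPM (SD, n = 3), followed by *KLF5* (244 ± 6.15 TPM), *TP63* (176 ± 4.06 TPM) and *PITX1* (173 ± 32.5 TPM). The *TP63* and *PITX1* levels overlapped between libraries, so their order was not resolved. *TFAP2A* (53.0 ± 2.61 TPM), *OVOL1* (16.5 ± 0.872 TPM), *KLF4* (12.3 ± 0.162 TPM), *ZNF750* (8.0 ± 0.0913 TPM) and *GATA3* (0.555 ± 0.118 TPM) followed without overlap between neighbors. With DAPT, *SOX2* (389.8 ± 20.9 TPM) and *KLF5* (225 ± 10.1 TPM) stayed at the head of the order. *PITX1* (162 ± 3.59 TPM) then lay above *TP63* (126 ± 2.06 TPM) in all 3 libraries. *KLF4* (23.1 ± 0.814 TPM) reached the level of *OVOL1* (21.2 ± 1.38 TPM), and these overlapped. *ZNF750* was at 1.94 ± 0.253 TPM and *GATA3* at 0.642 ± 0.183 TPM. TPM divide by the length of all annotated exons of a gene, which is 8218 bases for *TFAP2A* and 7478 for *TP63*, so a gene that uses few of them is set too low. On the TPM scale the median log2 ratio of all tested genes was 0.11, against 0.01 for the CPM used in the test, and changes with DAPT below are those of the CPM.

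**Figure D2:**
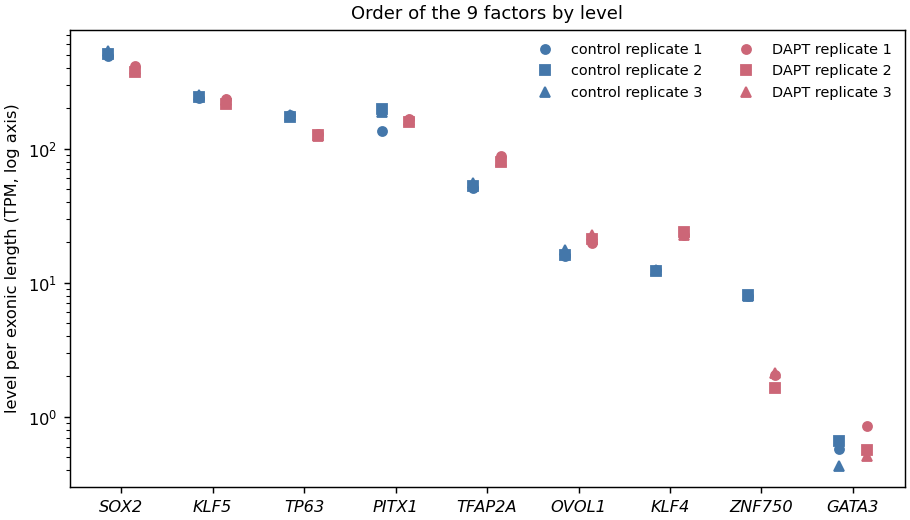
Level of the 9 factors in TPM, on a log axis, ordered by the control mean, with 1 point per library (control blue, DAPT red). *ZNF750* drops to 1.94 TPM with DAPT, *KLF4* rises to the level of *OVOL1*, and *SOX2*, *KLF5*, *TP63* and *PITX1* stay above the other 5 genes in every library.

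The basal lineage factors are described first. *TP63* (chromosome 3, 189631389 to 189897276, GRCh38) was at 383, 371 and 379 CPM in the control libraries and at 258, 252 and 246 CPM with DAPT. All DAPT libraries lay well below all control libraries. The log2 fold change was -0.58 ± 0.05 (SE; edgeR, adjusted p = 2.82e-09), a decrease of 33.3%. The counts sum over all *TP63* transcripts, so the long TAp63 forms and the ΔNp63 forms of basal keratinocytes were not separated. *SOX2*, which encodes a stem cell factor of the foregut and oral epithelium and has a single exon on the same chromosome (181711925 to 181714436), was at 351, 370.5 and 381 CPM without and 278, 248 and 259 CPM with DAPT. It fell by 0.49 ± 0.05 (SE; edgeR, adjusted p = 2.21e-07). *SOX2* lies inside *SOX2-OT*, a long noncoding gene on the same strand that shares none of its exonic bases. *SOX2-OT* held 39 to 73 reads per library, and its log2 fold change was 0.10 ± 0.19 (SE; edgeR, adjusted p = 0.738).

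*PITX1*, a homeobox gene of the oral ectoderm and hindlimb (chromosome 5, 135027734 to 135034813), was at 134, 195 and 182 CPM in the control libraries and at 153, 145 and 149.5 CPM with DAPT. Control replicate 1 was thus the lowest of the 6 libraries, at 71.1% of the mean of the other control libraries. Other genes also stood out there. *CEBPD* (22.2 CPM) and *CEBPB* (268 CPM) were lowest in that library and *SNAI2* (84.7 CPM) was highest, genes named after their values were seen. The log2 fold change of *PITX1* over all libraries was -0.19, with a 95% confidence interval from -0.58 to 0.19 (adjusted p = 0.394, edgeR). Without control replicate 1 it was -0.34 ± 0.05 (SE; edgeR, adjusted p = 3.77e-06), and over the 14 alternatives the adjusted p ranged from that value to 0.635. The low *PITX1* value was found in the library with the mesenchymal transcripts. The 12 squamous markers summed to 6170 CPM there, against 6304 and 6416 CPM in the other control libraries. The part of the mesenchymal transcripts in the *PITX1* value was not tested. *PITX1-AS1*, an antisense gene that shares no exonic base with *PITX1*, was at 8.66, 10.3 and 8.86 CPM without and at 6.24, 6.95 and 7.68 CPM with DAPT. It fell by 0.42 ± 0.13 (SE; edgeR, adjusted p = 0.0149).

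**Figure D3:**
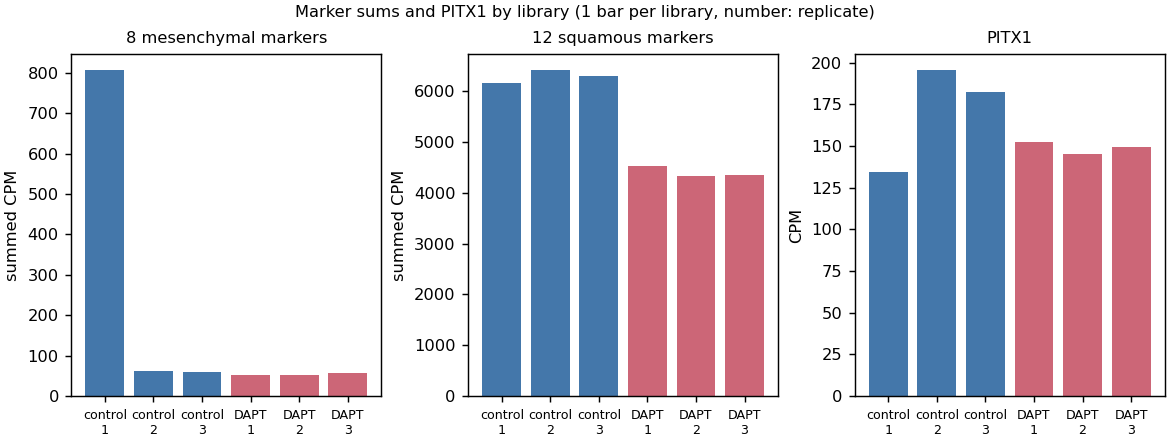
Summed CPM of 8 mesenchymal markers (left) and 12 squamous markers (middle), and CPM of *PITX1* (right), with 1 bar per library on axes that start at 0. Control replicate 1 holds 806 CPM of mesenchymal markers and the lowest *PITX1* value, 134 CPM. Its squamous sum is 6170 CPM, against 6304 and 6416 CPM in the other control libraries.

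The paralogs *KLF5* and *KLF4* changed in opposite directions, which brought their levels closer together. KLF5 is a zinc finger factor of proliferating basal cells, and KLF4 is needed to form the barrier of the upper layers. *KLF5* (chromosome 13, 73054976 to 73077541) was at 252, 258 and 262 CPM without and at 231, 209.7 and 223 CPM with DAPT. The groups were separate but close, and the log2 fold change was -0.22 ± 0.05 (SE; edgeR, adjusted p = 0.00158). *KLF4* (chromosome 9, 107484852 to 107490482) was at 13.1, 12.9 and 12.9 CPM in the control libraries and at 22.3, 23.5 and 22.1 CPM with DAPT. Its control libraries were nearly identical, and the gene rose 1.75-fold (log2 fold change 0.81 ± 0.09 SE; edgeR, adjusted p = 2.17e-07). The ratio of the *KLF5* to the *KLF4* level, both in TPM, was 19.2, 19.97 and 20.2 in the control libraries and 10.3, 8.87 and 10.03 with DAPT. This was a difference of -1.03 on the log2 scale (exact permutation test, two-sided, p = 0.1), and 0.1 is the smallest p that 3 against 3 libraries allow. Both genes separated the groups, in opposite directions, so the ratio had to separate them as well. This p therefore adds nothing to the results of the 2 genes.

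*TFAP2A*, which encodes AP-2α, a factor of early surface ectoderm and keratinocytes (chromosome 6, 10393186 to 10419659), was at 119.6, 125 and 130.4 CPM in the control libraries and at 194, 173 and 176 CPM with DAPT. Every DAPT library exceeded every control library, and the log2 fold change was 0.54 ± 0.05 (SE; edgeR, adjusted p = 1.14e-07). The antisense gene *TFAP2A-AS1* overlaps 5.33% of its exonic bases on the opposite strand and had 12 to 14 reads in the control libraries and 17 to 33 with DAPT (log2 fold change 0.83 ± 0.31 SE; edgeR, adjusted p = 0.0399). Counting was by strand, with reads assigned to the strand on which they map, whereas the named library kit usually yields reads of the opposite strand. Whether that setting matched the libraries is not stated and was not tested, so sense and antisense values carry this doubt. Under the same setting, *TFAP2A* itself had 1574 to 2979 reads per library. *TFAP2A-AS2*, which overlaps 11.4% of the *TFAP2A* exonic bases on the opposite strand, had a log2 fold change of 0.19 (adjusted p = 0.586, edgeR). The family member *TFAP2C* was at 113 CPM without and 109 CPM with DAPT, and its log2 fold change was -0.06 (adjusted p = 0.451, edgeR). Per exonic length *TFAP2C* lay above *TFAP2A*, with means of 132 against 53.0 TPM without and 135 against 82.3 TPM with DAPT. It is given here after its value was seen.

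*ZNF750* showed the largest change of the factors. It encodes a nuclear zinc finger protein that acts downstream of p63 to induce terminal differentiation of the epidermis. *ZNF750* (chromosome 17, 82829434 to 82840022) was at 7.16, 7.37 and 7.21 CPM in the control libraries and at 1.75, 1.39 and 1.77 CPM with DAPT. The reads behind these values were 87 to 115 without and 19 to 27 with DAPT. The control libraries were thus about equal and far above the DAPT libraries, and expression was 4.40-fold lower (log2 fold change -2.14 ± 0.17 SE, 95% confidence interval -2.50 to -1.78; edgeR, adjusted p = 3.69e-09). By absolute log2 fold change it ranked 41 among the 15001 tested genes, and it was the only factor to reach a 2-fold change, which 2.37% of all tested genes did with an adjusted p-value under 0.05. *ZNF750* lies within the body of *TBCD*, a tubulin cofactor gene on the opposite strand, and shares no exonic base with it. *TBCD* had a log2 fold change of -0.19 ± 0.06 (SE; edgeR, adjusted p = 0.0196).

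*OVOL1*, a zinc finger repressor that helps keratinocyte progenitors leave the cell cycle (chromosome 11, 65787063 to 65797214), was at 17.3, 17.8 and 18.9 CPM without and at 20.3, 21.4 and 22.8 CPM with DAPT. The groups did not overlap, but the gap between them was small. The log2 fold change was 0.26 ± 0.08 (SE; edgeR, adjusted p = 0.0200). This call was lost in 5 of 14 alternatives, among them DESeq2 (adjusted p = 0.0831) and the fits without control replicate 1 (adjusted p = 0.0549), control replicate 2 (adjusted p = 0.0631), DAPT replicate 2 (adjusted p = 0.0541) or DAPT replicate 3 (adjusted p = 0.1). *OVOL1-AS1* held 13 to 20 reads per library. An unnamed gene on the opposite strand (ENSG00000255404), which shares 27.3% of the *OVOL1* exonic bases, had 0 to 5 reads per library, against 228 to 313 for *OVOL1*. *GATA3*, a zinc finger factor of skin and luminal epithelia (chromosome 10, 8045378 to 8075198), had 9, 9 and 5 reads in the control libraries and 12, 7 and 6 with DAPT. These overlap, and a difference was not detectable at this depth. Without the filter on low counts its log2 fold change was 0.11 ± 0.47 (SE; edgeR, adjusted p = 0.914).

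**Figure D4:**
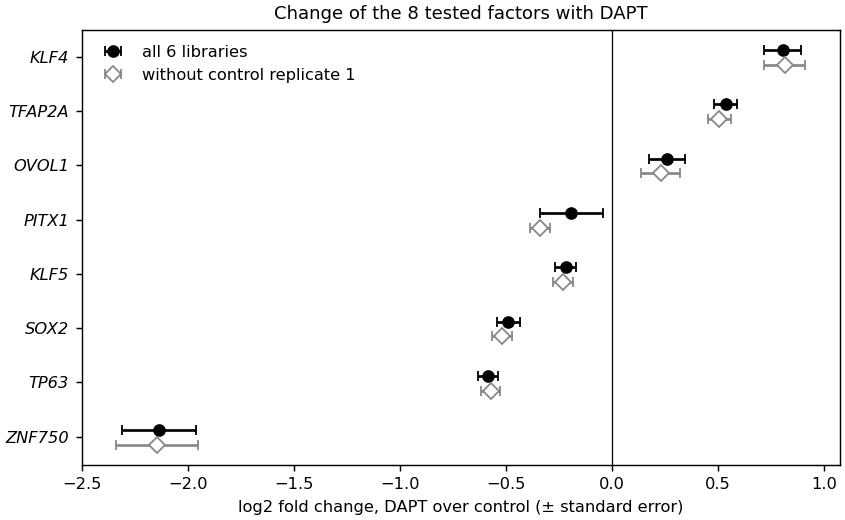
Log2 fold change of the 8 tested factors, DAPT over control, with bars of ± 1 standard error. Filled circles are from all 6 libraries and open diamonds from the fit without control replicate 1. *ZNF750* lies far to the left at -2.14, and only *PITX1* moves visibly, from -0.19 to -0.34.

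All 9 factors were free of exonic overlap with another gene on their own strand. Their promoters are shown for genes that moved together, *KLF4* and *TFAP2A* among those that rose and *TP63* and *SOX2* among those that fell, as the 250 bases upstream of a gene start in RefSeq (GRCh38.p14), each 5′ to 3′ on the gene's strand. Capitals mark matches on either strand to any of 5 motifs. These were GTGGGAA (the core bound by RBPJ, the DNA-binding partner of Notch), CACGTG and CACGCG (sites of HES and HEY type repressors), GGGCGG (the GC box of SP and KLF factors) and TATAAA (the TATA box).
*KLF4* (chr9:107489770-107490019, minus strand): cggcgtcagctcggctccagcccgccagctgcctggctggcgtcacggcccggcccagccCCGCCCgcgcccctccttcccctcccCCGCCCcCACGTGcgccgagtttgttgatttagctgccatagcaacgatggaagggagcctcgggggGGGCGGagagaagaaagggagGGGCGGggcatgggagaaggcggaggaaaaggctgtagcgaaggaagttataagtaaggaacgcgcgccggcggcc
*TFAP2A* (chr6:10419660-10419909, minus strand): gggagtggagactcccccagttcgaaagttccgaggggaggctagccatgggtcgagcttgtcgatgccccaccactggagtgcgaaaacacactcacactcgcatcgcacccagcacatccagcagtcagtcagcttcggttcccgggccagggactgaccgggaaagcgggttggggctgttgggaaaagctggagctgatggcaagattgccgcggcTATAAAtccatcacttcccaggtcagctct
*TP63* (chr3:189631139-189631388, plus strand): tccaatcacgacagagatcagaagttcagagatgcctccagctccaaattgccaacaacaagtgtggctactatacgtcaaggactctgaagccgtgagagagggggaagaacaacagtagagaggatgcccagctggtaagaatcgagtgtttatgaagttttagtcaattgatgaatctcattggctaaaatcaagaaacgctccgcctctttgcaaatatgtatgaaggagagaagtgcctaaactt
*SOX2* (chr3:181711675-181711924, plus strand): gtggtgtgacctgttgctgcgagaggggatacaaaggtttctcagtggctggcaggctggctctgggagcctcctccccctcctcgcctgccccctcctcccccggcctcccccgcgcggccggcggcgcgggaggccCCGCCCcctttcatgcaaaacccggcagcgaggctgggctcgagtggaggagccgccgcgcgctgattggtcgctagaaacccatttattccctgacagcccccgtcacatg
In the *KLF4* window, 4 GC boxes and CACGTG at 157 to 152 bases before the RefSeq start were matched. That start lies inside the gene as counted, which reaches to 107490482 on this minus strand, so the window is within the counted gene. The *TFAP2A* window shown, 1 of 2 for this gene, held a TATA box at 30 to 25 bases before its start, and the other (71.2% GC) held none of the 5 motifs. The *SOX2* window held a GC box at 112 to 107 bases before its start, and the *TP63* window had no match. The *TP63* window belongs to the most upstream start, that of TAp63, and the internal start of ΔNp63 was not examined. A match is a description of letters and not a binding site. Among 35116 promoters of this length, 42.6% held GGGCGG, 10.7% TATAAA, 9.72% CACGCG, 6.35% CACGTG and 5.43% GTGGGAA. For the 7 factors with an entry, the table held 14 windows, and GTGGGAA was found in 0 of them. *ZNF750* and *OVOL1* had no entry. The GC content was 44% for the *TP63* window, 59.6% for the *TFAP2A* window shown, 68.8% for *SOX2* and 69.2% for *KLF4*, and the median over all promoters was 58.0%.

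Other transcription factors of squamous epithelia were compared in the same fit. Of 38 listed genes 31 were tested, and 2 rose and 10 fell with DAPT, with a median log2 fold change of -0.07 against 0.01 for all tested genes. The share called was 38.7%, near that of all genes. *ELF3*, an epithelial ETS factor, rose from 76.8 ± 5.21 to 117.6 ± 3.93 CPM (SD, n = 3 each; log2 fold change 0.62, adjusted p = 2.72e-08, edgeR). *GRHL3*, a grainyhead factor of barrier formation, fell from 2.84 ± 0.181 to 1.27 ± 0.141 CPM (-1.15, adjusted p = 5.78e-04, edgeR), *ETS1* had a log2 fold change of -0.74 and the homeobox gene *MSX2* of -0.72. *SOX15* passed over all libraries (0.18, adjusted p = 0.0459, edgeR) but not without control replicate 1 (0.09, adjusted p = 0.170, edgeR), where 1 gene of this list rose and 12 fell. The median of the list was -0.15 in that fit.

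Paralogs of the factors were described in the same way. Of 48 listed genes 30 were tested, and 2 rose and 9 fell, with a median of -0.11, and the share called was 36.7%, near the 35.2% of all tested genes. *TP73*, which like *TP63* encodes a p53 family member, was at 32.8, 38.6 and 39.3 CPM without and at 24.4, 20.5 and 22.4 CPM with DAPT. Its groups were separate, and it fell by 0.71 ± 0.09 (SE; edgeR, adjusted p = 1.57e-06). *SOX4* fell by 0.76 (adjusted p = 1.50e-07, edgeR), and *SOX18* fell by 0.97 (adjusted p = 0.00105, edgeR). Without control replicate 1, 2 paralogs rose and 8 fell, with a median of -0.13.

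Genes known to depend on p63 in basal cells were mostly lower. Of 29 tested genes, 17 fell and 2 rose, with a median of -0.16, and 65.5% were called, against 35.2% of all tested genes. *EGFR*, named after its value was seen, was called at -0.12 (adjusted p = 0.0428, edgeR) with a control mean of 967 CPM. The part of such high counts in the share called was not tested. *KRT5*, the basal type II keratin, was at 2635, 2757 and 2710 CPM in the control libraries and at 1362, 1276 and 1308 CPM with DAPT, 2.05-fold lower (log2 fold change -1.04 ± 0.05 SE; edgeR, adjusted p = 3.34e-13). *KRT14* fell the most of this list, on few reads (-2.79 ± 0.41 SE). It passed the filter on low counts through the control libraries alone, with 36 to 49 reads there and 0 to 11 with DAPT. *HAS3*, a hyaluronan synthase, fell by 0.64. *FRAS1*, an extracellular matrix gene, rose by 0.44 and the laminin gene *LAMA3* by 0.18 (adjusted p = 0.00392, edgeR). The hemidesmosome genes *ITGB4* (0.09, adjusted p = 0.434) and *COL17A1* (-0.10, adjusted p = 0.12) did not pass edgeR's test, and are named here after their values were seen. Without control replicate 1, *COL17A1* passed (-0.14, adjusted p = 0.0123, edgeR), and 18 genes of this list fell and 2 rose.

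Genes of squamous differentiation were the list in which the smallest share passed the filter, 17 of 38. *LORICRIN*, *DSG1* and *CRNN*, late genes of the upper layers, had 0 reads in every library, which allows at most 0.244 CPM. *TGM3* also had 0 reads, but shares 94.8% of its exonic bases with another gene on its strand, and reads in shared bases were not counted. These 4 genes are named after their values were seen. Of the 17 tested genes 10 fell and 4 rose, with a median of -0.57, and 82.4% were called, against 35.2% of all tested genes. *KRT13*, the keratin of the suprabasal oral mucosa, was at 116, 118 and 113 CPM without and at 33.9, 33.1 and 28.9 CPM with DAPT, 3.62-fold lower (log2 fold change -1.85 ± 0.06 SE; edgeR, adjusted p = 1.04e-15). *RHCG*, an ammonia transporter of squamous mucosa, fell by 0.91 on the log2 scale (adjusted p = 0.00214, edgeR), and *GRHL3* belongs to this list as well. *ABCA12*, the lipid transporter of the skin barrier, rose from 10.9 ± 2.24 to 20.4 ± 0.299 CPM (SD, n = 3 each; 0.90, adjusted p = 3.07e-06, edgeR). *PPL*, which encodes the cornified envelope protein periplakin, rose by 0.72 (adjusted p = 1.23e-09, edgeR), and the keratin gene *KRT80* by 0.64. The list thus moved in both directions, as did the factors.

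**Figure D5:**
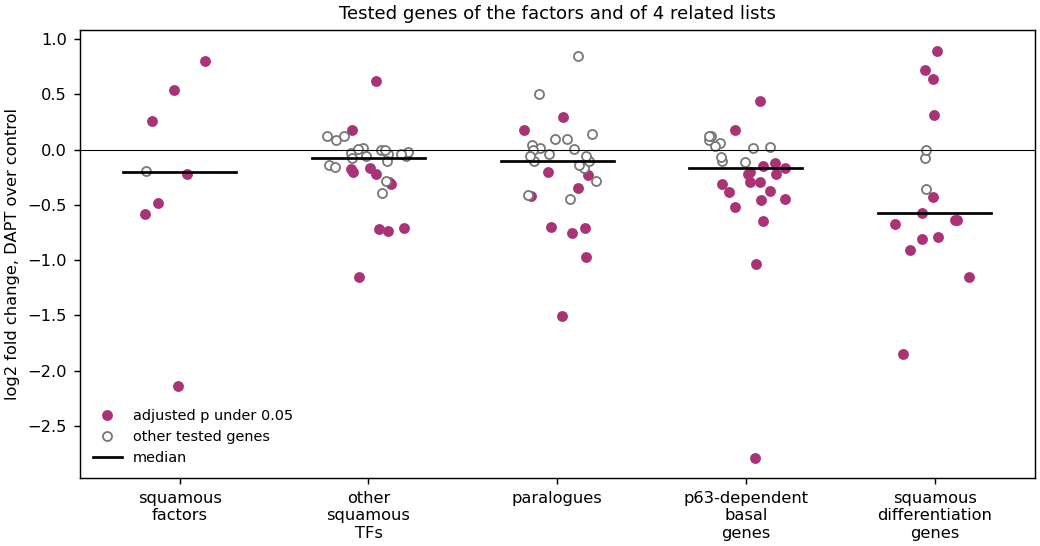
Log2 fold change with DAPT of the tested factors and of the tested genes of 4 related lists, with 1 point per gene, filled where the adjusted p is under 0.05, and a line at the median (horizontal spread is arbitrary). Over all 6 libraries, medians are near 0 for other transcription factors (-0.07) and paralogs (-0.11) and lowest for squamous differentiation genes (-0.57), where *KRT13* is the lowest point.

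Across the 4 lists, leaving out control replicate 1 gave a call to *CEBPD*, *FOXE1*, *KLF8*, *COL17A1* and *EVPL* and took it from *SOX15*, *KLF9* and *S100A7*, genes named for that change. Tested genes whose pattern over the 6 libraries lay closest to that of a factor were sought by the root mean square difference of centered log2 CPM. For *TP63* these were *MCM4* (0.0253), a subunit of the replicative helicase, *PTMA* (0.0309) and *RANBP1* (0.0321), where the median over the other 15000 genes was 0.329. For *ZNF750* they were *HEY1* (0.0900), *CYP24A1* (0.107), the vitamin D 24-hydroxylase, and *MMP7* (0.113), against a median of 1.05. With 2 groups this measure is set mainly by the size of the change with DAPT in log2 CPM. These were taken with a small count added, which shrinks changes at low counts. *MMP7* had a log2 fold change of -2.81 in the edgeR fit, against -2.14 for *ZNF750*.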

How the data were processed

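The authors isolated total RNA, prepared strand-specific mRNA libraries and sequenced them as single-end reads. The reads were trimmed with Trim Galore, mapped to GRCh38 with HISAT2 and, per the file headers, counted over the exons of Ensembl release 96 genes on 1 strand with featureCounts 1.6.3. The authors deposited these raw read counts per gene for each library. Reads mapping to several places or to several genes were not counted by the counter's defaults. The submitters' processing notes also name HTSeq and DESeq2, which the headers do not.

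Groups and replicate numbers came from the sample labels. Of 58884 genes, 58472 were given a symbol by identifier. Counts were compared with edgeR 4.0.16 in R 4.3.3 (filter by group with minimum count 10, TMM normalization, robust quasi-likelihood F test, Benjamini-Hochberg adjustment over 15001 genes, threshold 0.05). CPM are TMM-normalized, TPM use the exonic length in the files, and standard errors were derived from the F statistic. Depth limits precision at low counts. The 3 reads taken as the smallest signal equal 0.184 to 0.244 CPM and cover counting error only. The edgeR steps were tested on simulated data. Alternatives used DESeq2 1.42.0, limma-voom (limma 3.58.1), other scaling, filters and fits, a replicate block and each library left out.

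The factors and the 4 gene lists, written from general knowledge, were chosen with earlier results of these data known. The text names all 9 factors, genes overlapping them or named as their antisense or overlapping transcripts, *HES1* and *HEY1*, and from each list up to 3 genes in each direction with the largest log2 fold change among those with an adjusted p under 0.05 and a mean of at least 1 CPM. It also names the 3 genes most like *TP63* and the 3 most like the called factor with the largest change, and marker genes. Other genes are marked or are examples of a list. A gene that the rule selects among the paralogs and a leukocyte marker are not reported here. *HES1* fell from 47.0 to 27.5 CPM. The paper's qRT-PCR, imaging and public data sets were not analysed here.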

Additional observations from a re-analysis of the deposited data

How the results depend on the processing

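Under 14 alternatives, the direction of all 8 tested factors held, and 6 of them (*TP63*, *SOX2*, *KLF4*, *KLF5*, *TFAP2A* and *ZNF750*) also kept their side of the threshold. *PITX1* passed only without control replicate 1, and *OVOL1* lost its call under DESeq2 and in 4 of the 6 fits that left out a library; the cause was not tested. With a library left out, the factors called numbered 6 to 7, those higher 2 to 3 and those lower 4 to 5. Called genes numbered 9 to 13 for other squamous transcription factors, 8 to 10 for paralogs, 16 to 20 for p63-dependent genes, 12 to 14 for differentiation genes and 4174 to 5618 over all genes, and the log2 difference of the *KLF5* to *KLF4* ratio lay between -1.07 and -0.96. Scaling by library size alone moved the median log2 fold change of all genes to 0.06 and the share of higher genes among those called from 48.7% to 61.5%, and 3 of 8 factors were higher and 4 lower there as well. Libraries sharing a replicate number did not deviate together (correlations across genes of 0.0173, 0.0252 and 0.00382), so the numbers were not taken as pairs. With the replicate block, 7 factors were called, and *PITX1* had a log2 fold change of -0.18 (adjusted p = 0.277, edgeR). *GATA3* could be fitted only without the filter on low counts, where its log2 fold change was 0.11, as was the log2 ratio of its mean CPM. Depth limits *GATA3*, *KRT14*, *KRT6B*, *CDH5* and the DAPT values of *ZNF750*.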
